A study of Mus musculus with 18 samples.

Results

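The miR-17-92 cluster and its 2 paralogous clusters, miR-106b-25 and miR-106a-363, were followed through 10 guide arms, the strands of the precursors that are loaded into Argonaute. They were taken by name from the 1431 mature miRNAs of each table. Those of miR-17-92 are mmu-miR-17-5p, mmu-miR-18a-5p, mmu-miR-19a-3p, mmu-miR-20a-5p, mmu-miR-19b-3p and mmu-miR-92a-3p. Those of miR-106b-25 are mmu-miR-106b-5p, mmu-miR-93-5p and mmu-miR-25-3p, and miR-106a-363 gives mmu-miR-363-3p. The species prefix is left out from here on. All 10 were found and all 10 passed the filter on low counts, which kept 642 miRNAs. Male C57BL/6 mice, 8 to 12 weeks old, gave the organs: eye, lung and testicle, each from the left and the right. There were 18 libraries: 3 each of left eye, right eye, left lung, right lung, left testicle and right testicle. No group was given a treatment or a genetic change in the labels, so the comparisons are between organs and between body sides. The labels do not tie left and right libraries to a mouse, and p-values measure the spread between these libraries, which may be partly technical.

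MiRNAs guide Argonaute to messenger RNAs mainly through their seed, bases 2 to 8, and repress them, so miRNAs with the same seed share most of their targets. MiR-17-92 is cut from one transcript that MYC and E2F factors switch on. It is known for driving proliferation and survival, and mice without it die at birth with small lungs. Its miR-17 seed family represses cell cycle inhibitors, and its miR-92 family represses Bcl2l11 and integrin genes. MiR-106b-25 lies inside the replication gene Mcm7 and is transcribed with it. In the testis, the clusters are known from spermatogonia, the dividing stem and progenitor cells of the germ line.

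The mature sequences are shown because 4 seeds divide the 10 arms in a way that crosses the clusters. They are RefSeq's for GRCm38.p6, the build named in the submitters' processing notes, written 5′ to 3′ with the seed in capitals. The first 4 share the miR-17 seed, the next is miR-18a-5p, the next 2 share the miR-19 seed and the last 3 the miR-92 seed.
miR-17-5p: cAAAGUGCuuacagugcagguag
miR-20a-5p: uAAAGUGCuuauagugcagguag
miR-106b-5p: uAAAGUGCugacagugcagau
miR-93-5p: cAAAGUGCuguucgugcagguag
miR-18a-5p: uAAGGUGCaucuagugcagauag
miR-19a-3p: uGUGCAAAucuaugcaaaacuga
miR-19b-3p: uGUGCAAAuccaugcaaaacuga
miR-92a-3p: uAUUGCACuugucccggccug
miR-25-3p: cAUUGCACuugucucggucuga
miR-363-3p: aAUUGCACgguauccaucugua

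Outside the seed some of these sequences are nearly the same. MiR-19a-3p and miR-19b-3p differ at 1 of 23 positions (U11C, counted from the 5′ end, miR-19a-3p first), and miR-17-5p and miR-20a-5p at 2 of 23 (C1U and C12U). MiR-93-5p differs from miR-17-5p at 4 of 23 positions, all between bases 10 and 13 (U10G, A11U, C12U and A13C), and miR-25-3p from miR-92a-3p at 3 of the 21 they share (U1C, C14U and C18U). How the authors assigned reads that fit more than 1 name is not given in the sources used here, so a value for one arm of such a pair may hold reads of the other. No other miRNA name had the same counts as any of the 10 in every library.

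On GRCm38.p6 the 6 precursors of miR-17-92 lie at chr14:115043671-115044506 on the plus strand, all within exons of the long noncoding gene Mir17hg. The 3 precursors of miR-106b-25 lie at chr5:138165321-138165818 on the minus strand inside Mcm7. Mir106b is intronic there, and Mir93 and Mir25 overlap exons of retained-intron transcripts. MiR-106a-363 has 6 precursors at chrX:52741693-52742567 on the minus strand, intergenic except that Mir106a overlaps an exon of the noncoding gene Kis2. Both miR-19b-3p and miR-92a-3p are cut, with identical sequence, from a precursor of miR-17-92 and another of miR-106a-363. The hairpins of the miR-92a pair, with the shared guide arm in capitals, show that only the remainder could tell the loci apart.
Mir92-1, chr14:115044427-115044506, plus strand: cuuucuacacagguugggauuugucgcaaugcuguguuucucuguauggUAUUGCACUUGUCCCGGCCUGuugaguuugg
Mir92-2, chrX:52741838-52741928, minus strand: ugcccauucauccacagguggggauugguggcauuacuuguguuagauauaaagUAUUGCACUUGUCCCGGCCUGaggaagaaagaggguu

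The tables hold whole-number counts. Levels are given as counts per 1e6 counts (CPM) after trimmed mean of M values (TMM) scaling unless another scale is named. Eye libraries held 2451484 to 2680204 counts, lung libraries 2538402 to 2790471 and testicle libraries 952608 to 1893132. Where a miRNA had no count, the upper limit is 3 counts, equal to 1.08 to 1.22 CPM of the library total for eye and lung libraries and 1.58 to 3.15 for testicle libraries, which covers counting error only. Markers of the labelled organs were present: the sensory list (miR-183-5p, miR-182-5p, miR-96-5p) summed to 108822 to 124738 CPM of the library total in the eye and at most 4699 elsewhere. The gonadal miR-202-5p held 34758 to 43620 CPM of the library total in the testicle and at most 110 elsewhere. Leukocyte markers summed to 22863 to 29209 in the lung and at most 2934 elsewhere.

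Right lung 1 stood apart from the other lungs. Its median root mean square distance to the other lung libraries was 1.35 in log2 CPM, against 0.86 to 1.002 for the other 5. Its lung epithelium markers (miR-200c-3p, miR-141-3p) summed to 8859 CPM of the library total, below the 13045 to 15403 of the other lungs, and its leukocyte markers to 29209, above their 22863 to 26451. Among the 10 arms it had the lowest lung level of 7 and, after TMM scaling, the highest of miR-25-3p and miR-363-3p. By CPM of the library total, right lung 2 was highest for miR-25-3p, at 619 against 586 in right lung 1. Left lung 1 was then highest for miR-363-3p, at 18.9 against 18.1. It also had the highest lung sum of the pigment epithelium markers (miR-204-5p, miR-211-5p), 1632 CPM of the library total against 187 to 692, and the highest lung level of the lens and cornea marker miR-184-3p, 158 against 7.32 to 106.1. Its sensory list, at 4699, was highest by little, with left lung 2 at 4558. The neuron markers (miR-124-3p, miR-9-5p) were instead highest in left lung 2, 187 against 104.7 in right lung 1. The gonadal miR-202-5p was lowest in right lung 1, at 8.86, and highest in right lung 3, at 109.7. Calls that change without this library are given beside the result, and the part of these markers in them was not tested.

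In the testicle, 7 of the 10 arms were higher than in the eye and higher than in the lung: miR-17-5p, miR-18a-5p, miR-19a-3p, miR-20a-5p, miR-19b-3p, miR-93-5p and miR-25-3p. Of these, miR-19a-3p passed the filter on low counts within the testicle but not within the eye or the lung. Its call is thus no separate support for that count. Of all 642 miRNAs tested, 39.1% were called higher in the testicle than in the eye and 49.1% higher than in the lung. MiR-18a-5p had the largest difference, 35.2-fold against the eye and 22.0-fold against the lung. MiR-92a-3p, the most abundant of the 10 in the eye and lung, did not pass either test with the scaling used here, though with other scalings it was called higher in the lung. MiR-106b-5p did not pass either. MiR-363-3p, the arm of the X-linked cluster, went the other way and was lowest in the testicle. It passed the filter on low counts within the eye and within the lung but not within the testicle. Both comparisons share the testicle libraries, so they are not independent of each other.

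**Figure D1:**
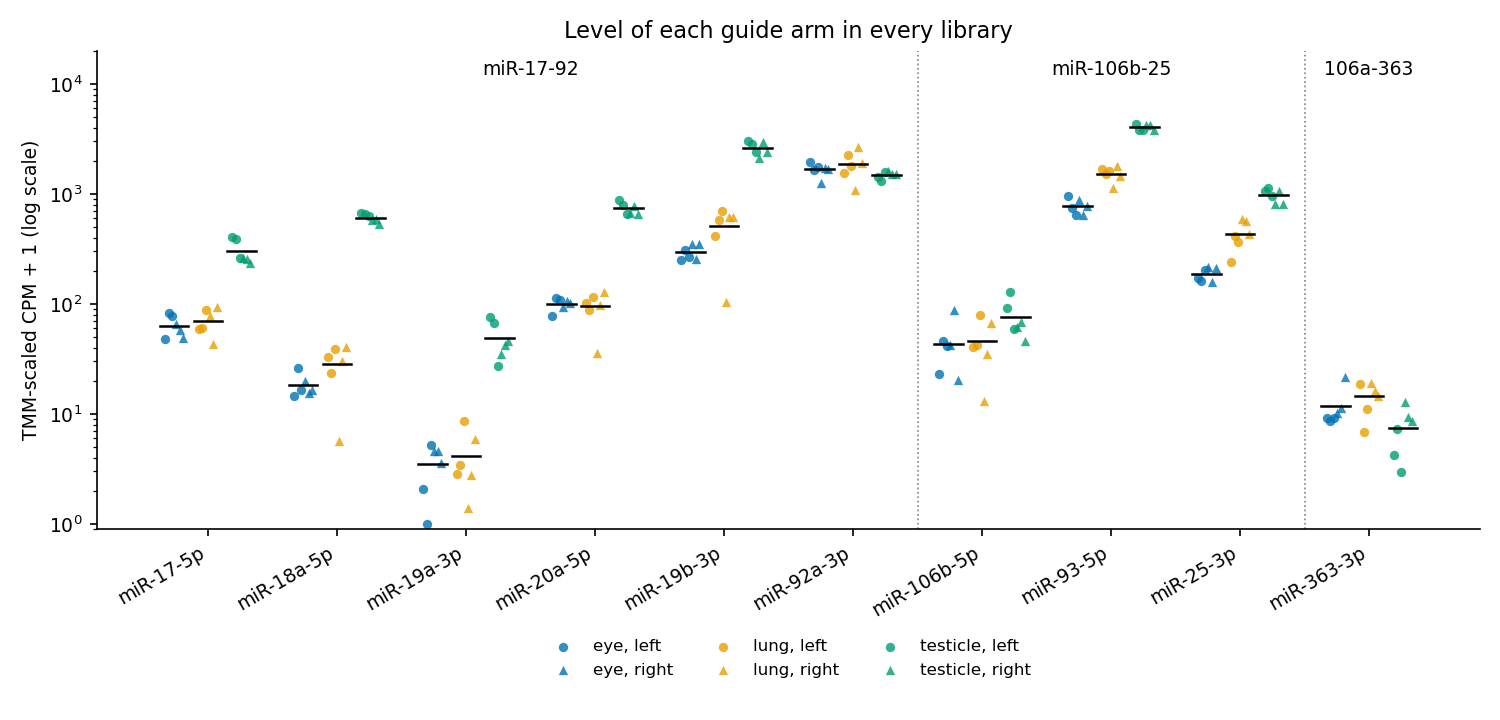
Level of each guide arm in every library, as TMM-scaled CPM plus 1 on a log axis, with circles for left and triangles for right libraries and a black line at the mean of the 6 libraries of an organ. The testicle points of miR-18a-5p lie between 532 and 665 CPM, above every eye and lung point, while those of miR-92a-3p lie among the eye and lung points.

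Within miR-17-92, the arms were far from equal. MiR-17-5p, which gives the cluster its name, lay between 47.0 and 81.0 CPM in the eye (median 60.8), between 41.8 and 91.7 in the lung (median 67.9) and between 232 and 406 in the testicle (median 262). The eye and lung ranges overlapped, and all 6 testicle libraries were above both, with left testicle 1 and 2 highest. Means of eye, lung and testicle were 62.4 ± 14.3, 69.1 ± 19.3 and 301 ± 75.4 CPM (SD, n = 6 each). Its log2 fold change was -2.26 for eye minus testicle (SE 0.23; edgeR adjusted p 1.2e-07) and -2.10 for lung minus testicle (SE 0.23; edgeR adjusted p 3.1e-07).

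MiR-20a-5p, of the same seed, lay between 76.1 and 111 CPM in the eye (median 103), between 34.4 and 126 in the lung (median 99.3) and between 648 and 876 in the testicle (median 722). Again only the testicle stood clear, and right lung 1 held the 34.4. Means were 98.6 ± 12.9, 93.6 ± 32.1 and 737 ± 92.1 CPM (SD, n = 6 each). The testicle level was 7.46-fold that of the eye (log2 difference -2.90, SE 0.26; edgeR adjusted p 2.4e-08) and 7.88-fold that of the lung (-2.98, SE 0.26; edgeR adjusted p 2.1e-08).

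MiR-18a-5p, the single arm of its seed among the 10, lay between 13.6 and 25.1 CPM in the eye (median 15.4), between 4.63 and 39.5 in the lung (median 30.6) and between 532 and 665 in the testicle (median 607). The lowest testicle library was thus more than an order of magnitude above the highest eye or lung library. Means were 17.2 ± 4.29, 27.6 ± 12.8 and 607 ± 52.0 CPM (SD, n = 6 each). The log2 fold change was -5.14 for eye minus testicle (SE 0.39; edgeR adjusted p 3.7e-09) and -4.46 for lung minus testicle (SE 0.38; edgeR adjusted p 1.6e-08).

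The miR-19 family has 2 arms in the cluster. MiR-19b-3p lay between 249 and 352 CPM in the eye (median 288), between 103 and 703 in the lung (median 597) and between 2117 and 3028 in the testicle (median 2625). Every testicle library was above every other library, and right lung 1 held the 103 while the other 5 lungs started at 415. Means were 297 ± 46.8, 505 ± 219 and 2619 ± 369 CPM (SD, n = 6 each). The testicle was 8.84-fold above the eye (log2 difference -3.14, SE 0.34; edgeR adjusted p 2.5e-07) and 5.21-fold above the lung (-2.38, SE 0.33; edgeR adjusted p 5.4e-06).

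MiR-19a-3p, which differs from miR-19b-3p by 1 base, was the scarcest of the 10 in the eye and lung. It lay between 0 and 4.21 CPM in the eye (median 3.08), between 0.39 and 7.64 in the lung (median 2.13) and between 26.1 and 75.1 in the testicle (median 43.1). Left eye 2 had no count, which allows up to 1.199 CPM of that library's total, and the eye and lung values are near this limit. Means were 2.51 ± 1.65, 3.16 ± 2.64 and 47.8 ± 18.8 CPM (SD, n = 6 each). Its log2 fold change was -4.24 for eye minus testicle (SE 0.56; edgeR adjusted p 2.5e-06) and -3.89 for lung minus testicle (SE 0.54; edgeR adjusted p 5.3e-06).

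MiR-92a-3p closes the cluster on its transcript, and it is abundant in blood vessels and red cells. It lay between 1257 and 1929 CPM in the eye (median 1710.4), between 1076 and 2644 in the lung (median 1852) and between 1316 and 1624 in the testicle (median 1515). The 3 ranges overlapped, the lung being the widest with right lung 1 lowest and right lung 2 highest. Means were 1669 ± 225, 1875 ± 546 and 1497 ± 112 CPM (SD, n = 6 each). The log2 fold change was 0.15 for eye minus testicle (SE 0.19; edgeR adjusted p 0.467) and 0.33 for lung minus testicle (SE 0.19; edgeR adjusted p 0.133). The lung difference depended on the setting. It was called higher in the lung without right lung 1 (0.46, edgeR adjusted p 0.0142), without right eye 2 (0.94, 4.6e-04) and in 6 of 10 other refits, among them left lung 1 as scaling reference (0.88, edgeR adjusted p 9.5e-04) and left testicle 1 as reference (0.83, 0.0011). The eye difference was called only with left lung 1 as reference (0.65, edgeR adjusted p 0.0081).

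Red cell markers (miR-451a, miR-144-3p, miR-486a-5p) summed to 230 and 262 CPM of the library total in left and right testicle 1 and to 4559 to 8172 in the other 4 testicles. MiR-92a-3p was 1425 and 1624 CPM in those 2 libraries and 1316 to 1585 in the other 4. The former lay inside and the latter just above the range of those 4. The part of red cells in its level was not tested.

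Of miR-106b-25, 2 arms were high in the testicle. MiR-93-5p, which carries the miR-17 seed, lay between 638 and 951 CPM in the eye (median 757), between 1136 and 1775 in the lung (median 1568) and between 3787 and 4271 in the testicle (median 4031). The 3 organs did not overlap and ranked eye, lung, testicle. Means were 770.2 ± 126, 1527 ± 222 and 4027 ± 237 CPM (SD, n = 6 each). The log2 fold change was -2.39 for eye minus testicle (SE 0.16; edgeR adjusted p 6.6e-10) and -1.40 for lung minus testicle (SE 0.15; edgeR adjusted p 3.7e-07).

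MiR-25-3p, which carries the miR-92 seed, lay between 156 and 217 CPM in the eye (median 185), between 241 and 588 in the lung (median 423) and between 810.2 and 1136 in the testicle (median 1008). It showed the same order without overlap. Means were 186 ± 26.6, 434 ± 129 and 972 ± 138 CPM (SD, n = 6 each). The log2 fold change was -2.39 for eye minus testicle (SE 0.18; edgeR adjusted p 3.9e-09) and -1.19 for lung minus testicle (SE 0.18; edgeR adjusted p 1.2e-05).

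MiR-106b-5p, first on that transcript, lay between 19.2 and 86.1 CPM in the eye (median 41.0), between 12.0 and 78.1 in the lung (median 40.3) and between 44.8 and 128 in the testicle (median 64.4). The ranges overlapped throughout. Means were 42.4 ± 23.9, 45.0 ± 23.5 and 75.1 ± 29.9 CPM (SD, n = 6 each). Its log2 fold change was -0.80 for eye minus testicle (SE 0.40; edgeR adjusted p 0.0782) and -0.72 for lung minus testicle (SE 0.40; edgeR adjusted p 0.112). The eye difference passed the threshold on leaving out any 1 of 7 libraries: left lung 1 or 2, right lung 1 or 2, right testicle 1 or 3, or right eye 2. Without right lung 1 it was -1.01 (edgeR adjusted p 0.0142), and without right eye 2, which held the 86.1, it was -1.27 (edgeR adjusted p 0.0074).

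MiR-363-3p was scarce: 7.61 to 20.4 CPM in the eye (median 8.75), 5.81 to 18.1 in the lung (median 14.3) and 1.93 to 11.7 in the testicle (median 6.91). The ranges overlapped, with the testicle reaching lowest. Means were 10.7 ± 4.89, 13.4 ± 4.78 and 6.49 ± 3.55 CPM (SD, n = 6 each). It was higher in the eye than in the testicle (log2 difference 0.76, SE 0.33; edgeR adjusted p 0.0424) and in the lung (1.11, SE 0.32; edgeR adjusted p 0.0050). The eye call was lost on leaving out any 1 of 15 of the 18 libraries, and without right eye 3, which held the 20.4, the log2 fold change was 0.34 (edgeR adjusted p 0.334).

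On leaving out right lung 1, the lung minus testicle log2 fold changes were -4.22 for miR-18a-5p, -3.66 for miR-19a-3p, -2.79 for miR-20a-5p, -2.15 for miR-19b-3p, -2.14 for miR-17-5p, -1.33 for miR-93-5p and -1.23 for miR-25-3p, with edgeR adjusted p of at most 1.5e-05. MiR-363-3p was then at 1.05 (edgeR adjusted p 0.0108) and miR-106b-5p at -0.51 (0.213). All of these stayed on the same side of the threshold.

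Over all miRNAs tested, 79.3% were called between eye and testicle, 39.1% lower and 40.2% higher in the eye, against 7 lower and 1 higher of the 10 arms. The 7 include miR-19a-3p and the 1 is miR-363-3p, with the limits of filtering given above. The median log2 fold change was 0.05 over all 642 and -2.39 over the 10. Between lung and testicle 76.5% were called, 49.1% lower and 27.4% higher in the lung, again against 7 and 1 of the 10, and the medians were -0.90 over all and -1.75 over the 10. That overall median is not 0, and the lung differences of miR-93-5p (-1.40) and miR-25-3p (-1.19) lie nearer to it than those of the other 5. It moved to -0.31 with left lung 1 as reference for the scaling, where these 2 arms were at -0.83 and -0.61 and still called. In 7 of the 10 the eye libraries lay wholly below the testicle libraries (34.6% of all miRNAs did) and in 7 the lung libraries did (38.6% of all). None lay wholly above, where 33% and 18.1% of all miRNAs did. In whole organs, fewer cells of a type and less of an RNA per cell cannot be told apart. Markers of ciliated and germ cells (miR-34b-3p, miR-34c-5p, miR-449a-5p) summed to 88160 to 121730 CPM of the library total for testicles, 9073 to 23478 for lungs and 297 to 424 for eyes. Their part in the differences of the 10 arms was not tested.

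**Figure D2:**
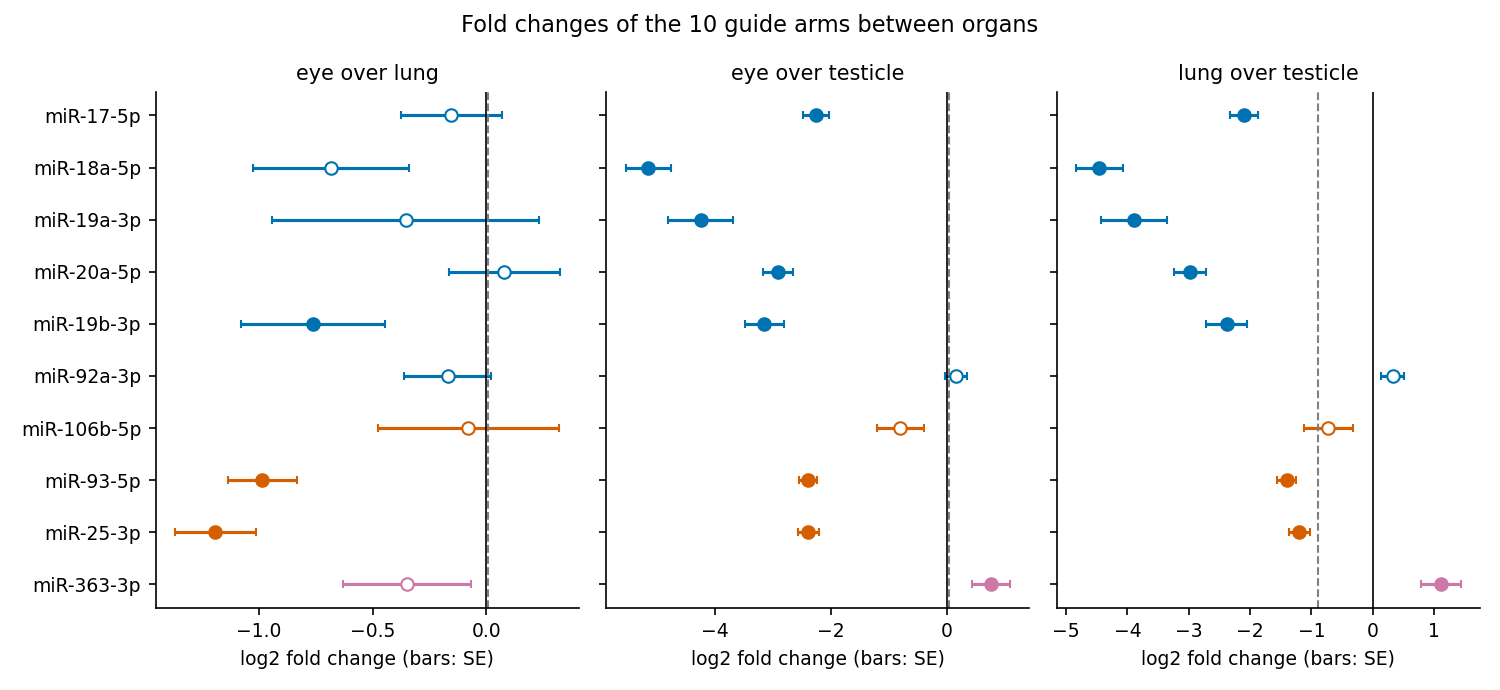
Log2 fold change of each guide arm for eye over lung, eye over testicle and lung over testicle, with bars of 1 SE; filled points passed an edgeR adjusted p of 0.05, blue marks miR-17-92, orange miR-106b-25 and pink miR-106a-363, and the dashed line is the median of all 642 miRNAs. The 6 arms of miR-17-92 spread from -5.14 to 0.15 in eye over testicle, and the dashed line of lung over testicle stands at -0.90.

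Eye and lung differed less. MiR-25-3p and miR-93-5p of miR-106b-25 were lower in the eye, 2.28-fold and 1.98-fold, and miR-19b-3p was 1.70-fold lower. The other 7 arms did not pass the test. The log2 difference was -1.19 for miR-25-3p (SE 0.18; edgeR adjusted p 1.4e-05), for miR-93-5p -0.99 (SE 0.15; edgeR adjusted p 2.1e-05) and for miR-19b-3p -0.76 (SE 0.32; edgeR adjusted p 0.0467). All eye libraries lay below all lung libraries for the first 2, which 17.3% of all miRNAs did, and none lay wholly above, where 31.3% did. For miR-19b-3p right lung 1 lay below every eye library, and the other 5 lungs lay above them all. Of all 642 miRNAs 59.8% were called, 24.5% lower and 35.4% higher in the eye, against 3 and 0 of the 10, with medians of 0.00 over all and -0.35 over the 10.

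Leaving out right lung 1 raised the count of arms lower in the eye to 5, and that of all miRNAs from 157 to 223. MiR-19b-3p was then at -1.21 (edgeR adjusted p 9.5e-06), miR-18a-5p at -1.14 (edgeR adjusted p 5.1e-05) and miR-92a-3p at -0.51 (edgeR adjusted p 0.0094), while miR-25-3p and miR-93-5p kept their calls at -1.36 and -1.27. The count of arms was also 5 without left lung 2, where 191 of all miRNAs were called lower. It was 9 without right eye 2, where 271 instead of 157 of all miRNAs were. The miR-19b-3p call was lost on leaving out any 1 of 7 other libraries. The count also moved with the scaling. With left testicle 1 as reference, 8 of the 10 were called lower in the eye, but the median of all miRNAs moved from 0.00 to -0.51 as well.

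Ratios between arms within a library do not depend on scaling, and they compare members of a cluster or of a seed family directly. Counts of the 2 arms were divided after adding 0.5 to each, and organs were compared by an exact two-sided permutation test on the log2 ratio, 6 libraries against 6, with Benjamini-Hochberg adjustment over 33 tests of 11 ratios. The smallest unadjusted p this test can give is 0.0022, which became 0.0089 after adjustment here. It takes the 6 libraries of an organ as separate units, which the labels do not settle. With same-numbered sides averaged, 3 values against 3, the smallest exact permutation p is 0.1, so no ratio could pass. Of the 11 ratios, 8 differed between eye and testicle, 6 between lung and testicle and 2 between eye and lung. No share of all miRNAs is given for these counts, since only the 11 ratios were tested.

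Across clusters within the miR-92 seed, the ratio of miR-25-3p to miR-92a-3p differed in all 3 pairs of organs. It was 0.0882 to 0.172 in the eye (median 0.106), 0.155 to 0.546 in the lung (median 0.207) and 0.499 to 0.863 in the testicle (median 0.654). Eye and testicle did not overlap, eye and lung did at their edges, and among the lungs only right lung 1, with 0.546, reached the testicle range. The log2 difference was -2.54 for eye minus testicle (exact permutation adjusted p 0.0089), -1.48 for lung minus testicle (0.0165) and -1.05 for eye minus lung (0.0130). Without right lung 1 the last 2 were -1.73 and -0.80 and still passed (exact permutation adjusted p 0.0110 and 0.0190).

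Within the miR-17 seed, the ratio of miR-106b-5p to miR-17-5p went the other way. Its median was 0.545 in the eye (0.401 to 1.51), 0.702 in the lung (0.159 to 0.896) and 0.231 in the testicle (0.194 to 0.329). All eye libraries lay above all testicle libraries, while right lung 1 lay below them. The log2 difference was 1.35 for eye minus testicle (exact permutation adjusted p 0.0089) and 1.27 for lung minus testicle (0.0333). The lung call was lost on leaving out any 1 of 11 of the 18 libraries, to an exact permutation adjusted p of at most 0.0625, and without right lung 1 the difference was 1.64 (0.0110).

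The ratio of miR-93-5p to miR-17-5p, also of the same seed, overlapped between all organs. For eye, lung and testicle its medians were 12.4, 22.1 and 15.3, with ranges of 8.33 to 20.2, 14.8 to 42.3 and 9.88 to 16.5. The eye minus lung log2 difference of -0.86 (exact permutation adjusted p 0.0491) passed by little and was lost on leaving out any 1 of 13 libraries. Without right lung 1 the lung minus testicle difference passed as well (0.85, exact permutation adjusted p 0.0317). For miR-363-3p over miR-92a-3p no pair of organs passed, with log2 differences of -0.19, 0.60 and 0.79 and exact permutation adjusted p from 0.224 to 0.740.

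Inside miR-17-92, arms cut from one transcript shifted against each other. Of the arms compared, miR-19b-3p and miR-92a-3p are also encoded by the X-linked cluster, so their counts may hold reads from both loci. The ratio of miR-18a-5p to miR-17-5p was 0.205 to 0.322 in the eye (median 0.293), 0.0630 to 0.700 in the lung (median 0.434) and 1.64 to 2.37 in the testicle (median 2.24). In all 12 eye and lung libraries miR-17-5p outnumbered miR-18a-5p, and in all 6 testicle libraries the reverse held. The log2 difference was -2.89 for eye minus testicle and -2.57 for lung minus testicle (exact permutation adjusted p 0.0089 each), and -2.07 for the latter without right lung 1.

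MiR-92a-3p over miR-17-5p ran opposite. It was 19.3 to 40.9 in the eye (median 26.7), 14.0 to 63.0 in the lung (median 23.7) and 3.39 to 6.54 in the testicle (median 5.95). No testicle library reached the lowest eye or lung ratio. The log2 difference was 2.41 for both comparisons with the testicle (exact permutation adjusted p 0.0089 each), and 0.00 between eye and lung (0.996). These became 2.60 for lung minus testicle and -0.19 between eye and lung without right lung 1.

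The remaining pairs in the cluster moved by smaller steps. MiR-20a-5p over miR-17-5p had medians of 1.52, 1.42 and 2.54 in eye, lung and testicle (log2 difference -0.64 for eye minus testicle, exact permutation adjusted p 0.0130, and -0.94 for lung minus testicle, 0.0165, or -0.63 and 0.0252 without right lung 1). MiR-19b-3p over miR-17-5p had medians of 4.87, 7.58 and 8.61 and passed only for eye minus testicle (-0.88, exact permutation adjusted p 0.0089). Without right lung 1 it also passed for eye minus lung (-0.89, 0.0252), as did miR-18a-5p over miR-17-5p (-0.82, 0.0110). MiR-19b-3p over miR-19a-3p had medians of 109, 193 and 56.9. It passed for lung minus testicle (1.60, exact permutation adjusted p 0.0089) and narrowly missed for eye minus testicle (1.46, 0.0516), where left eye 2 had no count of miR-19a-3p. That p was 0.0464 without right lung 1, which leaves the eye and testicle values as they were but alters the adjustment. The size of both differences depended on the added count. With 5 counts added instead of 0.5, lung minus testicle was 0.91 (exact permutation adjusted p 0.0491). Eye minus testicle was then 0.45 (exact permutation adjusted p 0.310).

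Inside miR-106b-25, miR-93-5p outnumbered miR-106b-5p in every library. For eye, lung and testicle the ratio had medians of 18.7, 39.5 and 63.5. MiR-25-3p over miR-106b-5p had medians of 5.07, 8.34 and 14.4. Both had lower values for the eye than the testicle, with log2 differences of -1.49 (exact permutation adjusted p 0.0204) and -1.47 (0.0130). Neither passed in the other 2 pairs of organs.

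**Figure D3:**
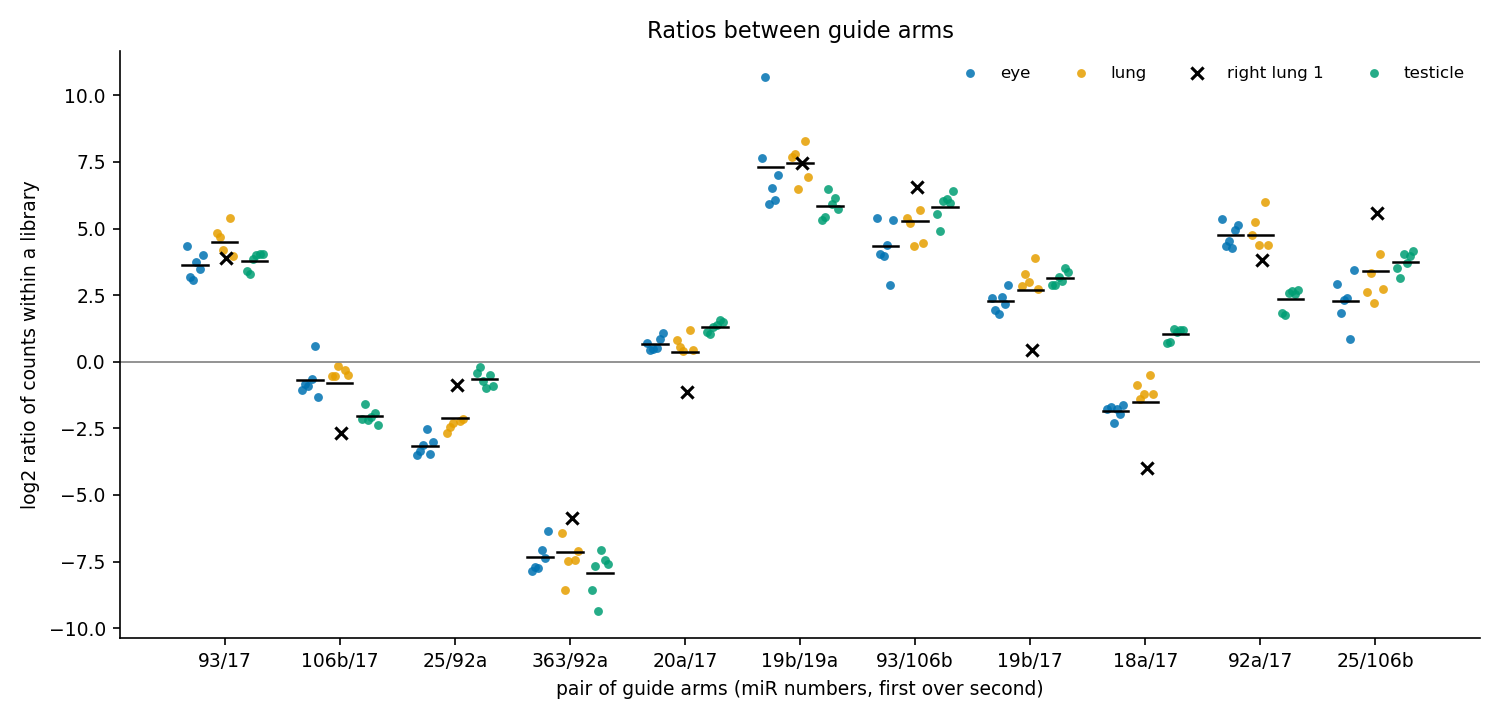
Log2 ratio of the counts of 2 guide arms within each library, for the 11 ratios tested, with a black line at the mean of an organ and a cross for right lung 1. The 6 testicle points of 18a/17 are above 0 and all eye and lung points below it, and the cross lies apart from the other lungs in the ratios of miR-106b-5p, miR-20a-5p, miR-19b-3p and miR-18a-5p to miR-17-5p and of miR-25-3p to miR-92a-3p.

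Summed by cluster, the 6 arms of miR-17-92 came to 1784 to 2315 CPM in the eye (median 2187), 1295 to 3431 in the lung (median 2766) and 5284 to 6475 in the testicle (median 5816). The 3 arms of miR-106b-25 came to 879 to 1143 (median 974), 1735 to 2375 (median 1965) and 4662 to 5422 (median 5107). These sums are descriptions and were not tested. The sum of miR-106b-25 over that of miR-17-92 had medians of 0.446, 0.722 and 0.867 for eye, lung and testicle. Where miR-19b-3p and miR-92a-3p, which the X-linked cluster also encodes, were left out of miR-17-92, its remaining 4 arms summed to medians of 179, 183 and 1613 CPM, and that ratio had medians of 5.45, 10.8 and 3.13, lowest in the testicle instead of the eye.

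By seed, the miR-92 family held the largest share of the 10 arms' counts in every eye and in the lung at the median, and the miR-17 family in every testicle library. The miR-92 share ranged over 50.6% to 63.2% of eye libraries' counts, 44.0% to 55.4% of the lungs' and 20.9% to 24.6% of the testicles'. The miR-17 share was 27.6% to 36.7%, 33.5% to 45.2% and 46.0% to 50.3%, the testicle lying above the other organs. The miR-19 share was 7.20% to 12.0%, 3.38% to 14.7% and 20.7% to 26.1%, and miR-18a-5p held at most 0.836% outside the testicle and 5.15% to 6.03% in it. Most of the miR-17 family was miR-93-5p in each organ: of the 6 arms of that seed in the tables, it held medians of 77.7%, 88.1% and 79.2% for eye, lung and testicle.

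**Figure D4:**
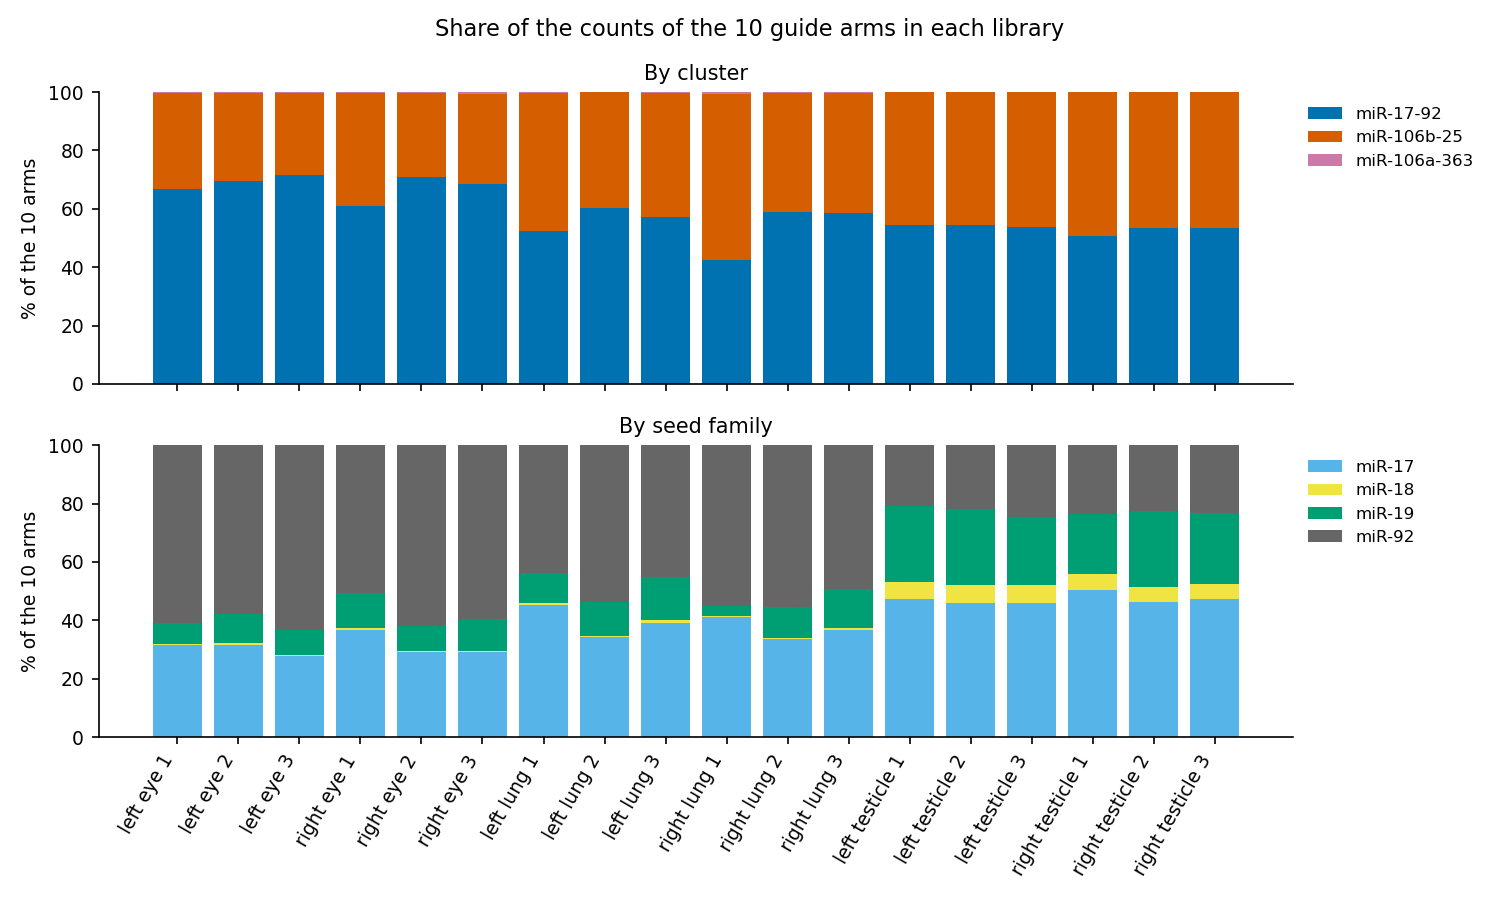
Share of the counts of the 10 guide arms in each of the 18 libraries, as stacked bars in percent, by cluster (above) and by seed family (below). In the lower panel the miR-92 share is 20.9% to 24.6% in the 6 testicle libraries, and in the upper panel right lung 1 has the smallest miR-17-92 share, 42.5%.

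The other arm of each precursor, usually degraded, was compared for the 2 guides whose other arm averaged at least 10 counts per library in every organ. For miR-92a-3p it was miR-92a-1-5p, which only the chromosome 14 precursor yields. The matching arm of the X-linked precursor was not found by name among the deposited counts. MiR-92a-1-5p lay between 8.25 and 13.7 CPM in the eye (median 11.8), between 7.34 and 14.4 in the lung (median 10.1) and between 54.8 and 79.0 in the testicle (median 65.9). The passenger arm was 5.71-fold higher in the testicle than the eye level (log2 difference -2.51, SE 0.20; edgeR adjusted p 4.9e-09) and 6.39-fold higher than in the lung (-2.68, SE 0.20; edgeR adjusted p 2.6e-09).

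The guide outnumbered that passenger 105.8 to 229 times in the eye (median 138), 130 to 242 times in the lung (median 183) and 19.01 to 24.0 times in the testicle (median 23.4). No testicle library came near the other organs. The log2 ratio differed by 2.67 for eye minus testicle and 2.97 for lung minus testicle (exact permutation, adjusted over 6 tests, p 0.0065 each). Eye and lung differed by -0.30 (exact permutation adjusted p 0.210).

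MiR-17-3p, the other arm of miR-17, lay between 27.4 and 39.6 CPM in the eye (median 33.1), between 11.6 and 84.3 in the lung (median 72.7) and between 82.6 and 118 in the testicle (median 101). Its seed is none of the 4 above.
miR-17-3p: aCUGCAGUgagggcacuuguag
MiR-17-5p outnumbered it 1.43 to 2.56 times in the eye and 2.17 to 4.88 times in the testicle. In the lung the ratio ran from 0.497 to 6.51, with right lung 1 at the top. No difference in this ratio passed (exact permutation adjusted p 0.0909 for both comparisons with the testicle). Without right lung 1 it was higher in the eye than in the lung (log2 difference 0.95, exact permutation adjusted p 0.0260) and lower in the lung than in the testicle (-1.62, 0.0087).

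**Figure D5:**
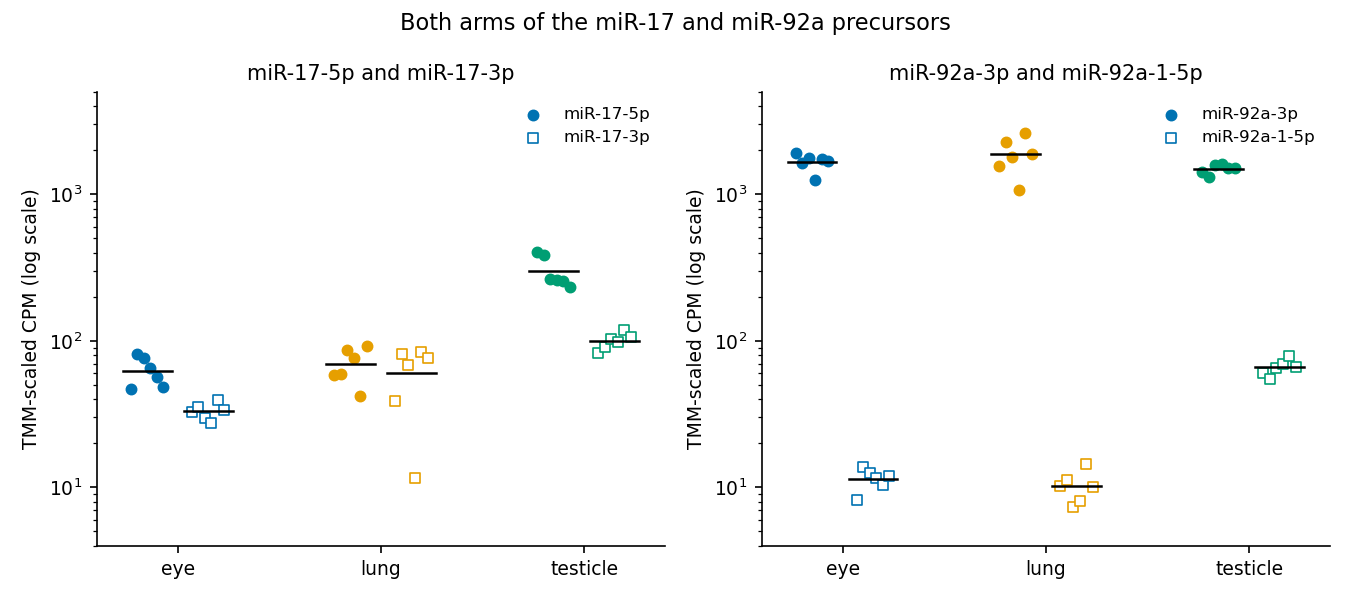
TMM-scaled CPM on a log axis of both arms of the miR-17 precursor (left) and of miR-92a-3p with miR-92a-1-5p (right), per library, filled circles for the guide and open squares for the other arm, with black lines at the means of 6 libraries. The guide miR-92a-3p has medians of 1710.4, 1852 and 1515 CPM in eye, lung and testicle, with overlapping ranges, and its passenger has medians of 11.8, 10.1 and 65.9 CPM.

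A list of the other arms and paralogues held 22 names, 21 of them in the tables and 13 tested. Between eye and lung, 0 were higher and 3 lower in the eye, between eye and testicle 1 and 10, and between lung and testicle 3 higher and 8 lower in the lung. Over all miRNAs the shares higher and lower were 35.4% and 24.5%, 40.2% and 39.1%, and 27.4% and 49.1%. Of the 22, 7 passed the filter on low counts within the eye, 9 within the lung and 10 within the testicle. Some calls may thus be of arms that passed only through the organ where they are higher, so the counts are descriptions. With at least 50 CPM on average in some organ were miR-17-3p, miR-92a-1-5p, miR-32-3p and 2 arms of other genes that carry the miR-92 seed.
miR-92b-3p: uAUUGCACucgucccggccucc
miR-32-5p: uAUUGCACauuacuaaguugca

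MiR-92b-3p differs from miR-92a-3p at 2 of 21 positions (U10C and G21C) and comes from chr3:89227126-89227147, minus strand. Its level was 996 to 2308 CPM in the eye (median 2009), 1114 to 2095 in the lung (median 1291) and 370.3 to 585 in the testicle (median 515). The testicle lay below both other organs, 3.80-fold below the eye (log2 difference 1.92, SE 0.23; edgeR adjusted p 8.7e-07) and 2.92-fold below the lung (1.55, SE 0.23; edgeR adjusted p 1.1e-05). Eye and lung overlapped (0.38, SE 0.22; edgeR adjusted p 0.160). The testicle was thus lowest for this arm and highest for miR-25-3p of the same seed. All 5 arms of the seed summed to medians of 3969, 4170 and 3412 CPM for eye, lung and testicle. In that sum the share of miR-25-3p had medians of 4.41%, 9.53% and 29.0%, that of miR-92b-3p 50.2%, 32.1% and 15.3%, and that of miR-92a-3p 42.1%, 45.4% and 45.3%.

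MiR-32-5p, from chr4:56895272-56895293, minus strand, lay between 93.7 and 169 CPM in the eye, 268 and 719 for lung libraries and 380.5 and 436 for testicle libraries. Eye levels were below those of the lung (log2 difference -1.81, SE 0.24; edgeR adjusted p 2.9e-06) and of the testicle (-1.67, SE 0.23; edgeR adjusted p 5.7e-06). Its other arm, miR-32-3p, ran 8.81 to 12.5, 27.2 to 49.8 and 53.5 to 95.3 CPM, without overlap between organs.

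The X-linked cluster was low throughout. Of 9 other arms listed for it, 8 were in the tables and 1 was tested. That one, miR-20b-5p, is named after its values were seen. It ran from 12.5 to 14.9 CPM for the eye, 13.9 to 25.8 for the lung and 3.60 to 16.7 for the testicle, and was called higher in the lung than in the testicle (log2 difference 0.76, SE 0.27; edgeR adjusted p 0.0165). The others averaged at most 2.43 CPM in any organ. Among them miR-106a-5p, which differs from miR-17-5p at 1 of 23 positions (U10A), had 12 counts over the 6 eye libraries, 19 over the lungs and 7 over the testicles. Of the passenger arms of miR-19b, that of the chromosome X precursor (miR-19b-2-5p) had 1 count in all 18 libraries, while miR-19b-1-5p of chromosome 14 averaged 5.67, 5.5 and 10.5 counts per library for eye, lung and testicle. These 2 were also chosen after their values were seen.

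The sides were compared within each organ and over all organs with organ as a covariate. No arm differed at an adjusted p of 0.05, and no miRNA did: the share called was 0% of 487 tested in the eye, of 430 in the lung, of 464 in the testicle and of 642 over all organs by edgeR. In the testicle 4 of the 9 arms tested had an unadjusted p under 0.05, all higher on the left, as had 36 of the 464 miRNAs. They were miR-106b-5p, miR-17-5p, miR-25-3p and miR-18a-5p, with log2 differences of 0.87, 0.70, 0.43 and 0.40 (edgeR adjusted p 0.574 each). For miR-17-5p the left testicles held 263, 389 and 406 CPM and the right 232, 256 and 261, so the sides did not overlap but lay close.

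MiR-363-3p had higher values on the right in testicle and eye, but no side difference of it was called. In the testicle it was 1.93, 3.22 and 6.23 CPM on the left and 7.59, 8.29 and 11.7 on the right. It did not pass the filter on low counts there and was not tested between testicle sides. Its testicle counts were at most 10 on the left and 13 on the right. In the eye it was 7.61, 8.10 and 8.25 CPM on the left and 9.26, 10.4 and 20.4 on the right. Lung sides overlapped. Over all organs its log2 difference, left minus right, was -0.73 (SE 0.24; unadjusted p 0.0069, edgeR adjusted p 0.762). It was 1 of 37 miRNAs, of 642 tested, with an unadjusted p under 0.05. In the eye 0 of 9 arms had an unadjusted p under 0.05 (18 of 487 miRNAs), and in the lung 0 of 9 (1 of 430). DESeq2 called 0 of the 10 arms and 1 miRNA in the eye and in the testicle. A test of whether the side difference varied between organs called 0 of 642 miRNAs by edgeR, with 21 at an unadjusted p under 0.05, none of them among the 10.

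For 5 arms the tested miRNAs with the most similar pattern over the 18 libraries were looked up, leaving out the 10 arms themselves. The measure was the root mean square difference of log2 CPM after centring each miRNA on its mean. Nearest to miR-17-5p were miR-467a-3p (0.36), miR-375-3p (0.45) and its cluster mate miR-92a-1-5p (0.52). Nearest to miR-19b-3p were miR-425-5p (0.39), miR-701-5p (0.49) and miR-203b-5p (0.53), and to miR-93-5p miR-16-5p (0.38), miR-350-3p (0.40) and miR-672-5p (0.40). MiR-92a-3p lay closest to miR-1843a-5p (0.24), miR-125a-5p (0.28) and miR-30c-2-3p (0.30), and miR-363-3p to let-7b-5p (0.50), miR-98-5p (0.52) and let-7i-5p (0.54). Between the 10 arms themselves, miR-93-5p and miR-25-3p of one transcript were 0.38 apart and miR-19b-3p and miR-20a-5p 0.41, whereas miR-17-5p and miR-18a-5p were 1.45 apart and miR-92a-3p and miR-18a-5p 2.47. The points share libraries and scaling, so these distances are descriptions.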

How the data were processed

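One table per library of whole-number counts for each mature miRNA, without normalization, was deposited by the authors, as the values and file headers show. The build was GRCm38.p6 per the submitters' processing notes, and libraries were made by the standard procedure of the BGI-500 sequencer per the labels' protocols. For the aligner, multi-mapping reads and molecular identifiers, the sources used here give nothing. The 10 members, the lists and the tests were chosen with earlier results of these data known. Counts of all 18 libraries were fitted in 6 groups with edgeR 4.0.16 in R 4.3.3 (TMM scaling, filterByExpr, quasi-likelihood test, Benjamini-Hochberg adjustment over all miRNAs tested, threshold 0.05). An organ contrast sets the mean of both sides against that of another organ. Ratios added 0.5 counts to each arm and were tested by exact permutation in scipy 1.17.1. Named are all members, other arms and paralogues with at least 50 CPM in some organ and the 2 highest embryonic miRNAs. So are the 3 most alike miRNAs outside the members for 5 members, and any other where its text says so. Sequences and positions are RefSeq's, matched by name for 10 of 10 members. The fit was tested on simulated counts with known changes. Alternatives were other scalings, DESeq2, no filter, a replicate block, 1 side only, each library left out and, for ratios, 5 counts added instead of 0.5.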

Additional observations from a re-analysis of the deposited data

Results flagged for a closer look

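Within an organ's 6 libraries, the highest or lowest was flagged where its gap to the nearest other library, as a share of the organ's range, was above Dixon's critical value. Of 69 sets of values examined, 9 were flagged, and chance flags about 5% of sets. Right lung 1 accounts for 5 of the 9. Its log2 ratio was -2.66 for miR-106b-5p over miR-17-5p, -1.15 for miR-20a-5p over miR-17-5p, 0.42 for miR-19b-3p over miR-17-5p and -3.99 for miR-18a-5p over miR-17-5p, each the lowest lung. For miR-25-3p over miR-92a-3p it was -0.87, the highest lung. Right eye 3 was high for miR-363-3p at 20.4 CPM. Right eye 2 was high for miR-106b-5p over miR-17-5p with a log2 ratio of 0.60. Left eye 2, with no count of miR-19a-3p, was high for miR-19b-3p over miR-19a-3p with 10.67. Right testicle 2 was low for miR-92a-3p over miR-92a-1-5p with a log2 ratio of 4.25.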

How the results depend on the processing

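In 28 refits, 18 of them leaving out 1 library, the 7 arms called higher in the testicle than in both other organs kept both calls, and miR-25-3p and miR-93-5p kept theirs between eye and lung. Arms lower in the eye against the lung numbered 1 at 2-fold or more (129 of all miRNAs). They numbered 8 with left testicle 1 as scaling reference (262 of all miRNAs, and 196 higher). With left libraries only they numbered 6 (220 of all miRNAs, and 180 higher). Leave-one-out gave 2 to 9 such arms (all miRNAs 154 to 271). MiR-20a-5p, at 0.08, reversed to -0.61 with left testicle 1 as reference (edgeR adjusted p 0.0459) and to -0.66 without right eye 2 (0.0401), with leave-one-out values from -0.66 to 0.25. Arms higher in the eye against the testicle numbered 0 at 2-fold or more, with left testicle 1 as reference, names with identical counts reduced to 1, 1 side only, no filter or the replicate block, and 2 with left lung 1 as reference, with 0 to 1 on leave-one-out. Arms higher in the lung against the testicle numbered 2, the gained arm being miR-92a-3p, with DESeq2, relative log expression scaling, either reference library, left libraries only or library totals, 0 with right libraries only and 1 to 2 on leave-one-out. With left lung 1 as reference all miRNAs split into 233 higher and 267 lower, against 176 and 315. Between sides, all miRNAs called numbered 1 (DESeq2) and 6 (no filter) in the eye, 1 (no filter) in the lung and 1 (DESeq2) in the testicle, and 0 to 1 on leave-one-out in eye, testicle and over all organs. Ratios past the threshold between eye and lung numbered 1 to 4 on leave-one-out, and arm ratios 0 to 1, or 1 to 2 between lung and testicle. The causes were not tested.

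With the replicate block miR-363-3p was at 0.75 between eye and testicle (edgeR adjusted p 0.0548) and miR-19b-3p at -0.68 between eye and lung (0.0764), so both calls were lost. Same-numbered left and right libraries correlated at -0.40 to 0.35, 4 of 9 pairs over 0.1, so they were not treated as pairs. Whether they share a mouse is not given, and the red cell sums were low in both testicle libraries numbered 1. Of 18 libraries, 9 correlated best with their own number. MiR-19a-3p and miR-363-3p are limited by depth, with counts near the limit of detection.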

Other observations

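The embryonic families miR-290 to miR-295 and miR-302, known from pluripotent stem cells, have some members whose seed overlaps that of miR-17. The list takes arms of these families whatever their seed, and their seeds were not compared here. Of 28 arms listed, 19 were in the tables and 7 were tested, and edgeR called all 7 lower in the eye and in the lung than in the testicle. Of all miRNAs, 39.1% and 49.1% were called lower in these comparisons. Of the 19 arms, 12 had no count in any eye library and 10 none in any lung library. The 7 could pass the filter on low counts only through the testicle, so their shared direction is no separate result. The listed arms summed to 159 to 250.4 CPM of the library total in testicle libraries, 0.77 to 5.12 in lung libraries and 0.80 to 1.99 in eye libraries. The highest were miR-293-3p, at 82.0 ± 15.9 CPM in the testicle (SD, n = 6), and miR-292a-3p, at 54.3 ± 6.88. For eye and lung their means were at most 0.91 CPM, under the limit that a count of 0 allows.

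The rank of the arms among the 1431 miRNAs of a table, by mean CPM of the library total, moved with the organ. MiR-18a-5p ranked 353 in the eye, 258 in the lung and 125 for the testicle. MiR-93-5p ranked 101, 72 and 55, and miR-92a-3p 76, 62 and 83.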
